A study of Arabidopsis thaliana with 9 samples.

Results

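Messenger RNA from shoots (aerial parts) of Arabidopsis thaliana plants labelled CUC2gm-4 was compared with that of plants labelled cuc2-3, with 3 libraries of each, 6 of the 9 libraries in the series. Members were taken by genotype label alone, and 18291 genes with enough counts were compared. Both lines were in the Col-0 background, were 21 days old, were grown on soil in short days without treatment, and carry a name that refers to the gene CUC2. The remaining 3 libraries come from wild type (WT) plants of the same age and background; they shared the estimate of the spread and are shown as levels only. The series describes the lines as knock-outs of a CUC gene, and gives neither the nature of the CUC2gm-4 allele nor the origin of the replicates. The p-values below therefore measure only the spread between these libraries, which may be technical.

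CUC2 (CUP-SHAPED COTYLEDON 2) is a transcription factor of the NAC family that is made in the narrow boundaries between organs and in the sinuses of the leaf margin, where it restrains growth and promotes the outgrowth of teeth. Its transcript and that of its close relative CUC1 are cut by the microRNA miR164, while the third family member, CUC3, has no such site. At the leaf margin CUC2 acts together with auxin, whose local maxima mark where teeth grow.

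The sequences of miR164 and of its target sites are shown because CUC2 carries such a site and was among the genes with a large difference. The mature miRNAs are read from the TAIR10.1 reference, with bases 2 to 8, the seed, in capitals, and written with T. They lie on the plus strand at chr2:19520770-19520790 (miR164a), chr5:287586-287606 (miR164b-5p) and chr5:9852684-9852704 (miR164c-5p).
miR164a: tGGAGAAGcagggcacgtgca
miR164b-5p: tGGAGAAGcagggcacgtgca
miR164c-5p: tGGAGAAGcagggcacgtgcg
The CUC2 site lies in its coding sequence on the minus strand, at chr5:21902301-21902321 of TAIR10.1, and that of CUC1 lies in coding sequence on the plus strand at chr3:5111137-5111157. Those of NAC1 and NAC100 are in coding sequence on the minus strand, at chr1:20947142-20947162 and chr5:24701687-24701707. In the target sites the capitals mark the bases opposite the seed.
CUC2: agcacgtgtcctgTTTCTCCa
CUC1: agcacgtgtcctgTTTCTCCa
NAC1: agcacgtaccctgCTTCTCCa
NAC100: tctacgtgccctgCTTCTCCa
The CUC2 and CUC1 sites are the same 21 bases, with 3 mismatches to miR164a, 1 of them opposite the seed, where G:U pairs count as mismatches. A search of 52177 transcripts of 31464 genes for sites with at most 3 mismatches returned 6 genes, all of them NAC factors, namely these and NAC080 and AT3G12977. The counts per gene hold no sequence, so whether the site is intact in plants labelled CUC2gm-4 was not tested.

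CUC2 (AT5G53950, chromosome 5, 21901704 to 21903854, minus strand) was far more abundant in the libraries labelled CUC2gm-4. They held 779, 656 and 1062 CUC2 reads, against 38, 11 and 23 in cuc2-3. Scaled to a common library total (CPM) this was 37.2 ± 7.03 CPM, against 1.03 ± 0.556 CPM in cuc2-3 (SD, n = 3 each). The groups were far apart, and the WT libraries, with 13, 53 and 55 reads, lay near cuc2-3. The series describes the lines as knock-outs, and what this high CUC2 level means for the CUC2gm-4 allele was not tested. Each direction below therefore rests on the label. CUC2 rose by 5.06 on the log2 scale (SE 0.45), with an adjusted p of 0.00184 in edgeR's quasi-likelihood test, adjusted over all genes by the method of Benjamini and Hochberg. Summed reads were 2497, against 72 in cuc2-3, a ratio per library total of 35.6 with a 95% counting interval of 28.1 to 45.6, and the differences within the same-numbered libraries were 4.09, 5.52 and 5.58 on the log2 scale. The exact p of a 2-sided permutation of these CPM was 0.1, the smallest that 3 against 3 allow. Without replicate 3 of every genotype the log2 fold change was 4.72 with an adjusted p of 0.0551.

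None of the tested genes beside CUC2 on the chromosome passed. AT5G53920, AT5G53930 and AT5G53940 on its lower-numbered side had log2 fold changes of -0.37 (SE 0.26), -0.19 (SE 0.25) and 0.15 (SE 0.20). TAT7, a tyrosine transaminase gene on the other side, was at -0.22 (SE 0.26), and each of these 4 had an adjusted p of 1.0 in edgeR's quasi-likelihood test. AT5G53960 had at most 3 reads in a library and HB52, a homeobox gene, 11, 17 and 15 reads in the libraries labelled CUC2gm-4, against 13, 0 and 25 in cuc2-3, so neither was tested.

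The other genes with a miR164 site did not pass. NAC1, a NAC factor of lateral root development, had 4.01, 2.34 and 1.72 normalised CPM (scaled with TMM factors) in the libraries labelled CUC2gm-4, against 6.01, 6.88 and 2.95 in cuc2-3. Its log2 fold change was -0.96 (SE 0.47, adjusted p = 1.0 in edgeR), and it was lower in each of the 3 same-numbered pairs although the groups overlapped. Of all tested genes 15.2% were lower in all 3 pairs. CUC1 fell under the count minimum with 7, 17 and 6 reads in the libraries labelled CUC2gm-4, against 16, 28 and 12 in cuc2-3. NAC080, NAC100 and AT3G12977 were also too scarce to test, with between 2 and 31 reads a library. CUC3, without such a site, was alike in the groups at 2.52 ± 0.294 normalised CPM, against 2.56 ± 0.233 in cuc2-3 (SD, n = 3 each), with a log2 fold change of -0.03 (SE 0.37) that turned positive under some alternatives. The miR164 precursors were not detectable at this depth, with 0 reads of MIR164A in all 6 libraries and at most 3 of MIR164B and 1 of MIR164C.

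In all, 3 of 18291 genes (0.0164%) passed an adjusted p of 0.05: CUC2 and TRM21 rose (2 genes, 0.0109%), and SADHU3-2 fell (1 gene, 0.00547%). The unadjusted p was below 0.05 for 682 genes (3.73%), 283 of them higher (1.55%) and 399 lower (2.18%). Once the replicate number was added as a block, which takes out what same-numbered libraries share, 7 genes passed (0.0383%), 4 higher (0.0219%) and 3 lower (0.0164%). These were the same 3 with AGO9 and AT3G30122 higher and AT4G11290 and PR4 lower, and the blocked unadjusted count was 1351 (7.39%), with 519 higher (2.84%) and 832 lower (4.55%). DESeq2 called 12 genes higher (0.0656%) and 13 lower (0.0711%).

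**Figure D1:**
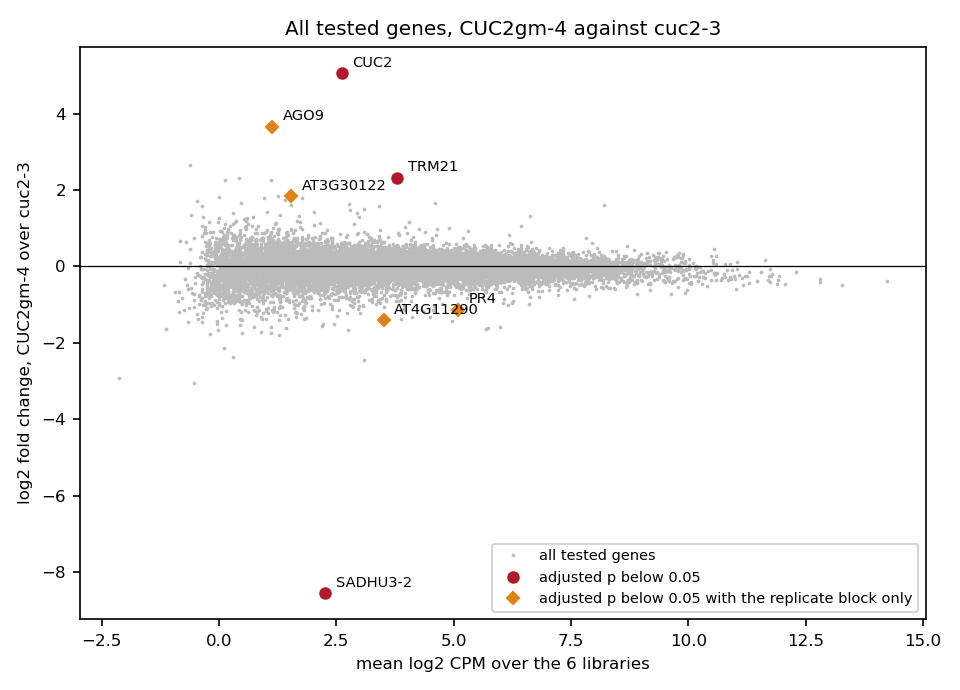
Each point is a tested gene, with its mean log2 CPM over the 6 libraries on the x axis and its log2 fold change, libraries labelled CUC2gm-4 over cuc2-3, on the y axis. SADHU3-2 lies at -8.55, CUC2 at 5.06 and TRM21 at 2.32, away from the band in which most genes lie.

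SADHU3-2 (AT3G42658, chromosome 3, 14749400 to 14750294, minus strand), a member of the Sadhu family of plant retroelements annotated as a pseudogene, was nearly silent in the libraries labelled CUC2gm-4 and strongly transcribed in cuc2-3. It had 0.201, 0.448 and 0.0409 normalised CPM, against 85.5, 85.1 and 80.5 in cuc2-3. The WT libraries were as low as those labelled CUC2gm-4, at 0.187, 0.279 and 0.0. SADHU3-2 fell by 8.55 on the log2 scale (SE 0.51, edgeR adjusted p = 9.78e-05), and its log2 fold change was -9.36 without CUC2gm-4 2. Summed over 3 libraries there were 15 reads, against 5644 in cuc2-3, which per library total is a 367-fold lower level with a counting interval of 222 to 656. Reads placed equally well at several copies had been removed by the authors, so the count of a repeated element is uncertain.

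TRM21 (AT5G43880, chromosome 5, 17639776 to 17643982, minus strand) belongs to the TON1 RECRUITING MOTIF family, whose members are linked to the arrangement of cortical microtubules. It had 29.4, 33.0 and 31.1 normalised CPM in the libraries labelled CUC2gm-4, against 4.68, 6.93 and 7.06 in cuc2-3. Here too the libraries labelled CUC2gm-4 lay close to WT, which had 27.3, 27.3 and 22.2, while cuc2-3 stood apart. TRM21 rose by 2.32 on the log2 scale (SE 0.19, adjusted p = 0.00119 in edgeR), and its summed reads had a ratio per library total of 5.21 with a counting interval of 4.70 to 5.80. Its neighbours, named after their values were seen, did not pass, with AT5G43870 at -0.20 (SE 0.30) and the auxin synthesis gene YUC5 at 0.51 (SE 0.39).

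AGO9 (AT5G21150, chromosome 5, 7192239 to 7198381, plus strand) encodes an Argonaute protein known from the ovule, where it binds small RNAs of transposons. It had 7.95, 6.92 and 8.26 normalised CPM in the libraries labelled CUC2gm-4, against 0.229, 1.01 and 0.603 in cuc2-3. WT lay with cuc2-3, at 0.436, 0.780 and 1.56, so the libraries labelled CUC2gm-4 stood apart from both. Summed reads were 539, against 40 in cuc2-3, a ratio per library total of 13.8 with a counting interval of 10 to 19.6. On the log2 scale AGO9 was at 3.66 (SE 0.51), short of the threshold in edgeR (adjusted p = 0.0892), and at 3.76 in the blocked fit (adjusted p = 0.0126). AGO9 passed under 13 of 29 alternatives, among them DESeq2 (adjusted p = 1.54e-10). The blocked call ended without cuc2-3 3 (adjusted p = 0.181) and without CUC2gm-4 1, 2 or 3 (adjusted p = 0.0857, 0.0833 and 0.0721), and the value was 4.36 without cuc2-3 2.

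AT3G30122, a transcribed pseudogene, had 4.90, 5.18 and 5.93 normalised CPM in the libraries labelled CUC2gm-4, against 1.19, 1.63 and 1.63 in cuc2-3. Its log2 fold change of 1.84 (SE 0.26) had an adjusted p of 0.0910 in edgeR, and 0.0425 with the block. AT4G11290, a peroxidase gene, had 5.66, 8.71 and 6.75 normalised CPM, against 16.6, 23.2 and 16.1 in cuc2-3. Its difference was -1.41 on the log2 scale (SE 0.28, edgeR adjusted p = 0.541, and 0.0327 with the block). PR4, a pathogenesis-related gene with chitin-binding activity, had 16.5, 42.2 and 16.9 normalised CPM, against 33.9, 85.1 and 45.9 in cuc2-3. For AT3G30122 and AT4G11290 the groups were apart, as in 4.82% of all genes upward and 5.19% downward. For PR4 they overlapped, with replicate 2 highest in both. Within the pairs PR4 differed evenly, by -1.03, -1.01 and -1.43, and its blocked log2 fold change was -1.17 (adjusted p = 0.0327, against 1.0 without the block). In DESeq2, without the block, the adjusted p was 2.71e-06 for AT3G30122, 0.00582 for AT4G11290 and 0.903 for PR4. Leaving out any single one of the 6 libraries ended the blocked calls of AT3G30122 and AT4G11290 (highest adjusted p 0.426 and 0.345), and any but cuc2-3 1 ended that of PR4 (highest 0.348). Leaving out WT 2 ended all 3 calls (adjusted p = 0.084, 0.084 and 0.0942 for AT3G30122, AT4G11290 and PR4), and leaving out WT 1 that of AT3G30122 (0.0564).

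**Figure D2:**
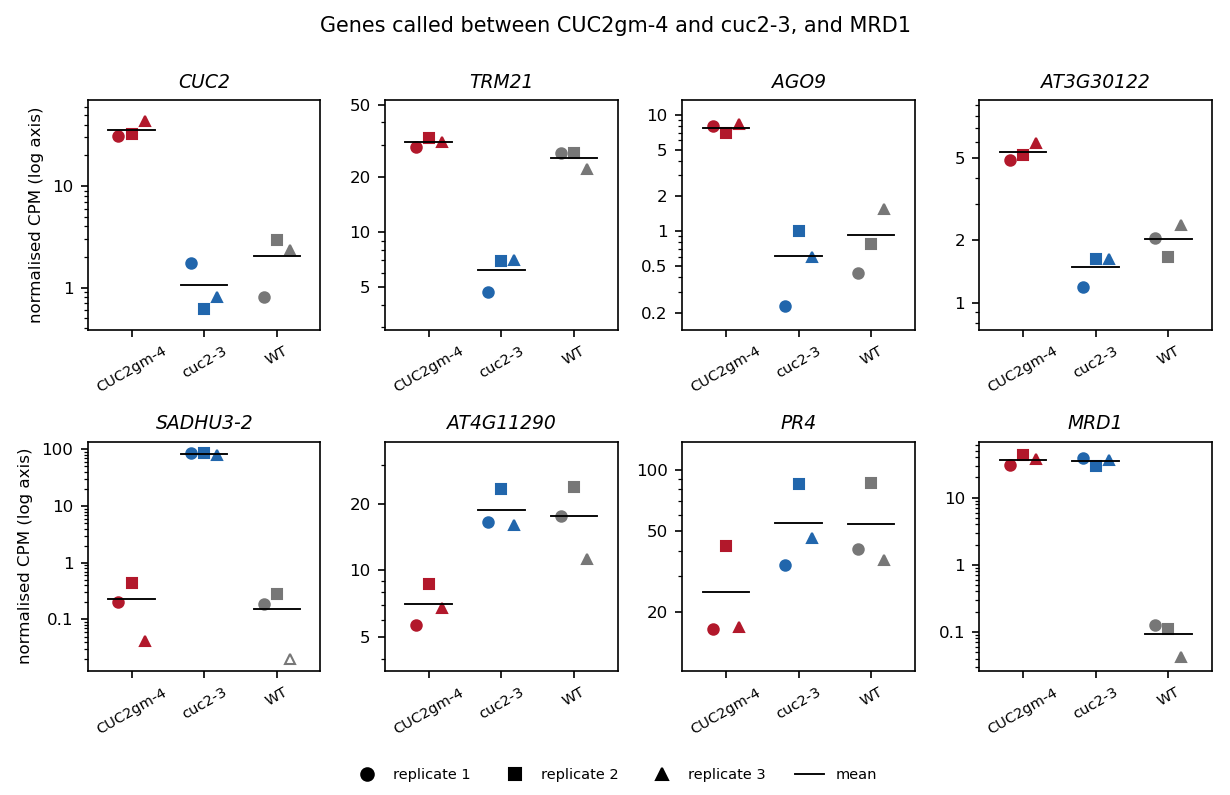
Normalised CPM on log axes for each library labelled CUC2gm-4 (left), cuc2-3 (middle) and WT (right), with shapes for the replicate number and bars for the mean; the open symbol stands for a count of 0, drawn at the foot of the axis. CUC2 and AGO9 are high in the libraries labelled CUC2gm-4 alone, SADHU3-2 and TRM21 differ in cuc2-3, and MRD1 is alike in both lines.

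Another 3 genes were far from WT in both lines and overlapped between the lines. MRD1, short for mto1 responding down, had 30.6, 42.7 and 37.0 normalised CPM in the libraries labelled CUC2gm-4, against 38.3, 29.9 and 36.9 in cuc2-3, while WT had at most 0.125. AT2G44970, an alpha/beta-hydrolase gene, had 33.6, 33.7 and 37.8, against 34.7, 31.8 and 30.5 in cuc2-3 and at most 7.99 in WT. The long non-coding RNA gene AT3G29644 had 7.46, 4.83 and 7.40, against 6.97, 4.73 and 6.74 in cuc2-3 and at most 1.73 in WT. For all 3 the libraries of the lines overlapped, with log2 fold changes of 0.07 (SE 0.18), 0.12 (SE 0.15) and 0.09 (SE 0.30); those of MRD1 and AT3G29644 changed sign when single libraries were left out. MRD1 and AT3G29644 overlap genes on the opposite strand, and whether the counting used strand is not given here.

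The genes with the next smallest p did not pass in edgeR's quasi-likelihood test of 9 libraries, with or without the block, while DESeq2 called all of them but ATCG00220. Of these, AT2G07080, AT3G05730, AT1G60110 and AT5G58390 also passed in the edgeR fit of 6 libraries with the block, and UGT72E1 in the blocked fit without cuc2-3 1. Among those higher, AT3G28560, an AAA-type ATPase gene of the BCS1 type, had 1.53, 1.64 and 1.02 normalised CPM in the libraries labelled CUC2gm-4, against 0.138, 0.169 and 0.319 in cuc2-3. NRPE3B, a subunit gene of a plant-specific RNA polymerase, had 5.18, 2.99 and 6.71, against 1.51, 1.86 and 1.56 in cuc2-3. The defensin-like gene AT3G05730 had 115, 164 and 201, against 57.4, 84.0 and 50.9 in cuc2-3. In each of these genes the groups were apart, with log2 fold changes of 2.66 (SE 0.49), 1.6 (SE 0.36) and 1.32 (SE 0.27) and adjusted p of 0.36, 0.748 and 0.613. Picking by small p in the same libraries favours such separation, which 4.82% of all tested genes showed in this direction. The pseudogenes AT2G07080 and AT5G14830 were at 1.0 (SE 0.18) and 1.13 (SE 0.21), and the plastid gene ATCG00220 at 1.02 (SE 0.23).

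Among those lower, the lectin gene AT1G60110 had 7, 2 and 5 reads in the libraries labelled CUC2gm-4, against 26, 29 and 63 in cuc2-3, a difference of -3.05 on the log2 scale (SE 0.48, adjusted p = 0.181). UGT72E1, a glucosyltransferase gene of phenylpropanoid metabolism, had 17.9, 14.9 and 17.3 normalised CPM, against 26.9, 38 and 38.3 in cuc2-3 (adjusted p = 0.317). LUP1, the gene of a lupeol synthase that makes triterpenes, had 5.58, 4.73 and 5.36, against 12.0, 9.92 and 12.2 in cuc2-3 (adjusted p = 0.321). These 3 genes too were apart in the groups and short of the threshold in edgeR, with an adjusted p of 0.000902, 0.000363 and 0.00139 in DESeq2. They were also picked by small p, and 5.19% of all tested genes were apart in this direction. The groups were also apart for the lipid transfer gene LTP at -0.98 (SE 0.18), the reticulon gene AT3G61560 at -1.51 (SE 0.28), the peroxidase gene AT5G58390 at -1.13 (SE 0.22) and AT1G07440 at -0.90 (SE 0.18). LUP1, AT3G61560 and, among the higher genes, AT3G05730 overlap a gene on the opposite strand.

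**Figure D3:**
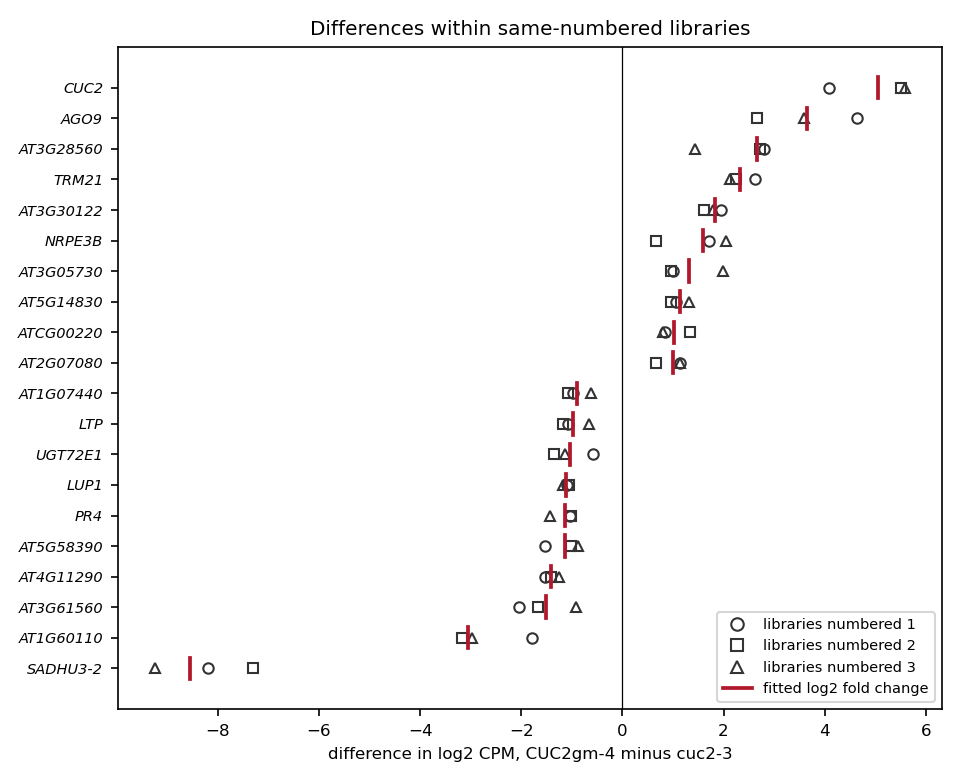
Differences in log2 CPM, libraries labelled CUC2gm-4 minus cuc2-3, within same-numbered libraries (open symbols) and the fitted log2 fold change (bar) for 20 genes, ordered by size. All 3 pairs of each gene lie on the same side of 0, from CUC2 at 4.09, 5.52 and 5.58 to SADHU3-2 at -8.19, -7.30 and -9.24. The genes were picked by their p in these same libraries, which favours such agreement. Of all tested genes 13.9% were higher and 15.2% lower in all 3 pairs.

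Gene lists are given by the number of members on each side and their median, beside all tested genes, of which 50.1% had a positive log2 fold change, with a median of 0.00. In bulk tissue, fewer cells of a type and less RNA per cell cannot be told apart. Among 15 organ boundary genes 10 were tested and CUC2 was the member that passed. LOF1, a MYB factor of organ separation, had 2.17, 3.04 and 5.93 normalised CPM in the libraries labelled CUC2gm-4, against 0.825, 0.789 and 1.53 in cuc2-3. Its libraries were apart, as in 4.82% of all genes. The log2 fold change of 1.8 (SE 0.69) had an unadjusted p of 0.0247, or 0.00101 with the block, with an adjusted p of 1.0 and 0.334 in edgeR. The boundary gene LOB was at -0.48 (SE 0.31), and the whole list was split evenly, 5 positive and 5 negative, with a median of 0.11 that was -0.15 without CUC2gm-4 3 and 0.24 without CUC2gm-4 1.

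Genes of the leaf margin and of teeth, 12 of 14 tested, had a median log2 fold change of 0.37 with 7 positive and 5 negative, and 0 passed. The pair medians were -0.03, 0.21 and 0.50. At unadjusted p below 0.05 there were 4 higher and 1 lower, beside 1.55% and 2.18% of all tested genes. YUC1 and YUC4 encode flavin monooxygenases that make auxin. YUC1 had 2.45, 1.84 and 3.11 normalised CPM in the libraries labelled CUC2gm-4, against 0.963, 0.958 and 1.10 in cuc2-3, and YUC4 had 7.67, 4.98 and 7.44, against 4.63, 3.95 and 3.37. For both genes every library labelled CUC2gm-4 lay above every cuc2-3 library, as in 4.82% of all genes, and their log2 fold changes were 1.29 (SE 0.31) and 0.75 (SE 0.24), each with an adjusted p of 1.0 in edgeR. The growth gene JAG was at 1.05 (SE 0.44) with overlapping groups. WOX1, a homeobox gene of blade outgrowth, was at -0.62 (SE 0.25) with the groups apart, as in 5.19% of all genes. The list members LMI1, ABS2, NGAL1 and DPA4 were also negative, at -0.44, -0.46, -0.34 and -0.03. CYP78A5, a cytochrome P450 gene that prolongs growth, had 25.4, 30.3 and 33.0 normalised CPM in the libraries labelled CUC2gm-4, against 18.8, 19.7 and 16.6 in cuc2-3, also apart, with a log2 fold change of 0.69 (SE 0.41).

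Mitotic genes were positive in 14 of 15, with a median of 0.25 (0.21 to 0.34 with single libraries left out). The pair medians were 0.32, 0.34 and 0.06, and the median was 0.40 without replicate 3 of every genotype and 0.42 in the blocked fit without CUC2gm-4 3. The kinase gene CDKB1;1 had 27.0, 43.2 and 36.8 normalised CPM in the libraries labelled CUC2gm-4, against 19.4, 25.5 and 24.8 in cuc2-3, a log2 fold change of 0.62 (SE 0.21). CDC20.1, an activator of the anaphase-promoting complex, was at 0.54 (SE 0.20), the cyclin gene CYCB1;1 at 0.44 (SE 0.16) and the Aurora kinase gene AUR2 at 0.41 (SE 0.17). These 4 had an unadjusted p below 0.05, as 1.55% of all tested genes did in this direction, and 0 of the 15 passed. DNA replication genes were positive in 5 of 12 with a median of -0.01, and the difference between the lists was not tested. Of 12 organ size genes tested 9 were positive (median 0.28, and 0.16 without CUC2gm-4 3), among them the growth-regulating factor genes GRF9 at 0.45 (SE 0.19), GRF7 at 0.87 (SE 0.41) and GRF1 at 0.32 (SE 0.16). Of 14 leaf polarity genes 10 were positive (median 0.24), with the auxin response factor gene ETT at 0.41 (SE 0.18) and KAN3, of the KANADI family of lower-side factors, at -0.41 (SE 0.22), both with the groups apart. In the list 3 members were apart and higher and 1 apart and lower, beside 4.82% and 5.19% of all tested genes. The polarity median was 0.13 without cuc2-3 1, and -0.15 in pair 2 against 0.32 and 0.30 in pairs 1 and 3.

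Members of the stomatal lineage list lay on both sides. The receptor kinase gene ER (ERECTA), which acts in stem and leaf growth as well as in stomatal spacing, had 301, 232 and 271 normalised CPM in the libraries labelled CUC2gm-4, against 199, 200 and 222 in cuc2-3. ER and its relatives ERL1 and ERL2 were at 0.37 (SE 0.15), 0.41 (SE 0.17) and 0.36 (SE 0.15), with the groups apart in each. The list held 3 members apart in this direction and 2 in the other, beside 4.82% and 5.19% of all tested genes. The secreted peptide gene EPF2 was at -0.60 (SE 0.25), and the transcription factor genes MUTE and FAMA, which drive guard cell formation, at -0.66 (SE 0.30) and -0.44 (SE 0.20). The list as a whole had 10 of 15 members negative and a median of -0.24, and 0 passed; the median was -0.38 without CUC2gm-4 1, -0.09 without CUC2gm-4 2 and -0.08 without replicate 3 of every genotype.

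**Figure D4:**
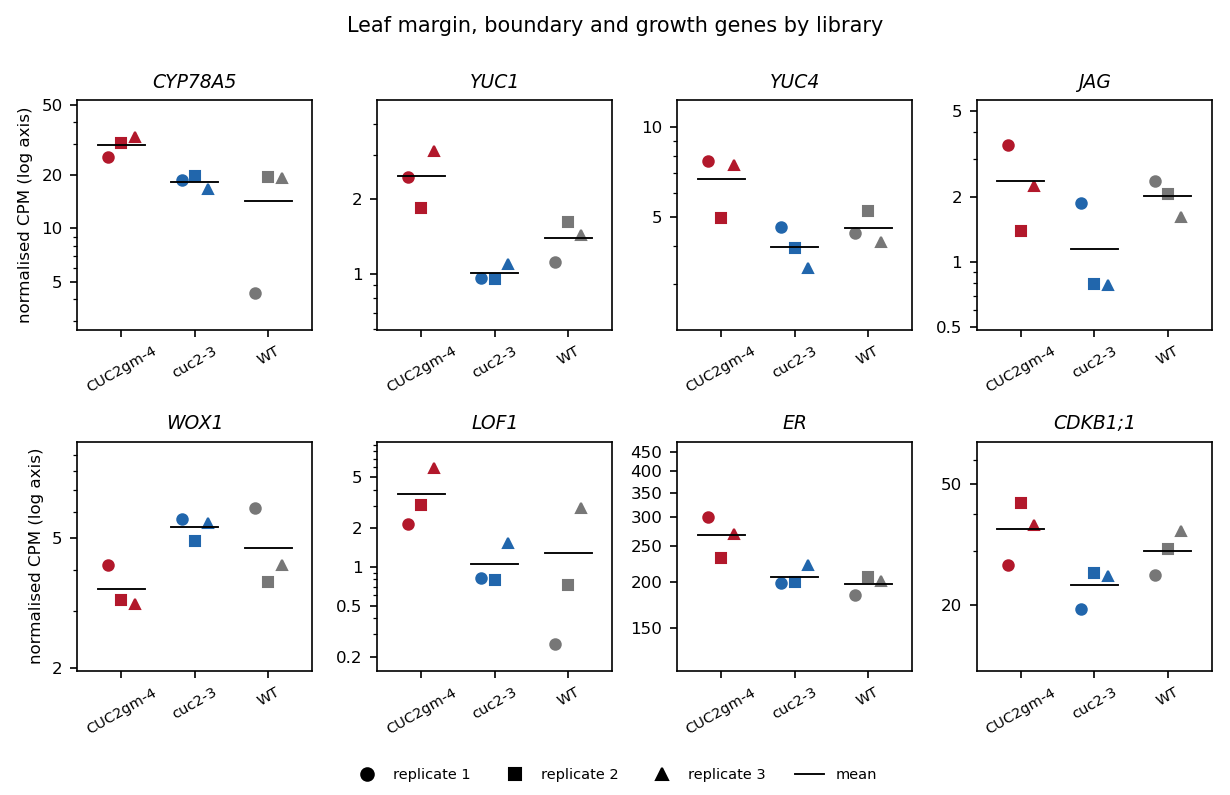
Normalised CPM on log axes for each library labelled CUC2gm-4 (left), cuc2-3 (middle) and WT (right), with bars for the mean, of 8 genes of the margin, boundary, stomatal and mitotic lists. CYP78A5, YUC1, YUC4, LOF1, ER and CDKB1;1 have all 3 libraries labelled CUC2gm-4 above those of cuc2-3, WOX1 has them below, and JAG overlaps. The genes were chosen with results of these same libraries known, and none passed in edgeR's test of 9 libraries. Of all tested genes 4.82% were apart and higher and 5.19% apart and lower.

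Nuclear genes of photosynthesis were negative in 22 of 22, with a median of -0.39, and 0 passed. Their summed level was 93900, 72600 and 91200 CPM in the libraries labelled CUC2gm-4, against 117000, 101000 and 98900 CPM in cuc2-3, so the groups were just apart. LHCB3, an antenna protein gene of photosystem II, had 3100, 2910 and 3750 normalised CPM, against 4220, 4240 and 4930 in cuc2-3, a log2 fold change of -0.45 (SE 0.16). LHCA4 of the photosystem I antenna was also at -0.45 (SE 0.19), and the Rubisco small subunit gene RBCS2B at -0.61 (SE 0.31). In 10 of the 22, all of them antenna genes, the libraries labelled CUC2gm-4 lay below those of cuc2-3, as in 5.19% of all genes. The pair medians were -0.44, -0.63 and -0.16, and with the clock index below as a covariate the median was -0.40. WT levels were 136000, 91400 and 88500 CPM and so spanned both lines. The small subunit and CAB genes are near-identical copies, and their counts depend on the reads removed as ambiguous.

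Expansins, which loosen cell walls during growth, were negative in 11 of 13 with a median of -0.38 (-0.17 without cuc2-3 1). EXPA11 had 7.14, 8.46 and 7.61 normalised CPM in the libraries labelled CUC2gm-4, against 18.8, 15.9 and 10.7 in cuc2-3, a difference of -0.97 on the log2 scale (SE 0.27, edgeR adjusted p = 1.0, and 0.309 with the block). EXPA8 was at -1.23 (SE 0.62) with overlapping groups, and passed only in 6 libraries with the block. Aliphatic glucosinolate genes were negative in 17 of 17 with a median of -0.41, and the pair medians of -1.17, -0.48 and 0.09 differ, the libraries numbered 3 lying on the other side of 0. The list includes MYB29, a regulator of the pathway, at -0.63 (SE 0.29), and CYP79F1, a cytochrome P450 gene of the pathway, at -0.78 (SE 0.32). Its median was -0.17 without CUC2gm-4 1 and -0.69 without CUC2gm-4 3. Flavonoid and anthocyanin genes were negative in 14 of 15 (median -0.26, -0.47 without CUC2gm-4 3 and -0.14 without CUC2gm-4 2), again with a positive pair 3 (0.36).

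Touch and immediate early genes, which answer handling and wounding within minutes, were negative in 13 of 16 with a median of -0.43. The zinc finger gene RHL41 had 1.32, 2.14 and 1.19 normalised CPM in the libraries labelled CUC2gm-4, against 3.67, 4.85 and 2.13 in cuc2-3, and WRKY40 had 1.32, 4.23 and 1.96, against 4.77, 7.61 and 4.01. Both overlapped between the groups and were lower in every pair. Of all tested genes 15.2% were lower and 13.9% higher in all 3 pairs, which also holds for the pairs of PR2 and NIMIN1 below. The list's median was 0.14 without cuc2-3 2 and -1.05 without CUC2gm-4 2, the libraries numbered 2 being the high ones in both groups at a summed 914 and 1150 CPM. Salicylic acid defence genes were negative in 10 of 12 with a median of -0.18 (-0.31 without CUC2gm-4 2 and 0.07 without cuc2-3 2). PR2 had 1.24, 5.18 and 2.41 normalised CPM in the libraries labelled CUC2gm-4, against 4.49, 12.9 and 8.34 in cuc2-3, overlapping between the groups and lower in each pair, with -1.78, -1.30 and -1.75 on the log2 scale (adjusted p = 1.0 in edgeR, 0.341 with the block, and 0.0268 in 6 libraries with the block). NIMIN1, which binds the defence regulator NPR1, lay on the other side at 0.82 (SE 0.58), higher in each pair with an unadjusted p of 0.0141 in the blocked fit.

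Of the hormone genes 0 passed. The auxin response repressor gene IAA7 had 46.4, 53.9 and 47.3 normalised CPM in the libraries labelled CUC2gm-4, against 67.2, 67.9 and 87.5 in cuc2-3, apart, with a log2 fold change of -0.59 (SE 0.18). The list of auxin response genes was near even, with 10 of 21 positive and a median of -0.01 (-0.29 without CUC2gm-4 3 and 0.33 without cuc2-3 3). The cytokinin synthesis gene IPT3 was at -0.94 (SE 0.36) and the breakdown gene CKX4 at -0.51 (SE 0.19), both with the groups apart, while 10 of 14 cytokinin genes were positive (median 0.11, -0.02 without cuc2-3 2 and 0.29 without CUC2gm-4 1). Of 6 gibberellin oxidase genes tested 4 were negative (median -0.57, and -0.25 without cuc2-3 3), including GA3OX1 at -0.48 (SE 0.26) and GA2OX6 at -0.70 (SE 0.38), whose unadjusted p was 0.0947 and 0.0937, or 0.0277 and 0.0369 with the block. The brassinosteroid enzyme gene ROT3, named for its short and round leaf mutants, was at -0.85 (SE 0.30) with the groups apart. Like IAA7, IPT3, CKX4 and ROT3, 5.19% of all tested genes were apart and lower.

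Among the remaining lists 0 members passed, and the medians ran from -0.31 to 0.33. Flowering time and phase genes were positive in 9 of 11 (median 0.33). SOC1, a floral integrator, was at -0.59 (SE 0.24) with the groups apart, as in 5.19% of all genes. Meristem genes of the KNOX and BELL families were positive in 6 of 12 (median 0.03), CIN-type TCP genes in 3 of 8 (-0.07), auxin transport and synthesis genes in 8 of 18 (-0.08), brassinosteroid genes in 4 of 9 (0.00), trichome patterning genes in 5 of 10 (-0.01) and heat shock and folding genes in 5 of 8 (0.09). The TCP gene TCP13, a regulator of leaf growth, was at -0.62 (SE 0.26). CBF cold regulon genes were positive in 3 of 11 (-0.25), indole glucosinolate genes in 1 of 10 (-0.20), jasmonate genes in 5 of 14 (-0.17), starch turnover genes in 2 of 13 (-0.15), shoot iron status genes in 1 of 9 (-0.31), PIF, HY5 and shade genes in 3 of 10 (-0.08) and leaf senescence genes in 2 of 6 (-0.11). Epidermis and guard cell markers were positive in 2 of 4 (-0.03), morning clock genes in 2 of 6 (-0.14) and evening clock genes in 7 of 8 (0.15).

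Most of these medians moved with single libraries. Leaving out CUC2gm-4 1 gave -0.04 for the meristem list, -0.25 for TCP, 0.00 for indole glucosinolate, 0.09 for jasmonate and -0.17 for epidermis and guard cell genes. Leaving out CUC2gm-4 2 gave 0.11 for flowering, 0.14 for meristem, 0.14 for heat shock and -0.60 for CBF genes. Leaving out CUC2gm-4 3 gave -0.95 for morning clock, -0.54 for indole glucosinolate, -0.55 for jasmonate, -0.42 for senescence, -0.50 for iron, -0.30 for shade and -0.10 for heat shock genes. Leaving out cuc2-3 1 gave 0.12 for trichome genes. Leaving out cuc2-3 2 gave 0.12 for CBF, 0.06 for starch, -0.15 for iron, 0.79 for evening clock, -0.14 for auxin transport and -0.13 for trichome genes. Leaving out cuc2-3 3 gave 0.30 for morning clock, -0.16 for evening clock, 0.23 for shade, 0.23 for brassinosteroid, 0.03 for auxin transport, -0.05 for senescence and 0.09 for epidermis and guard cell genes.

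**Figure D5:**
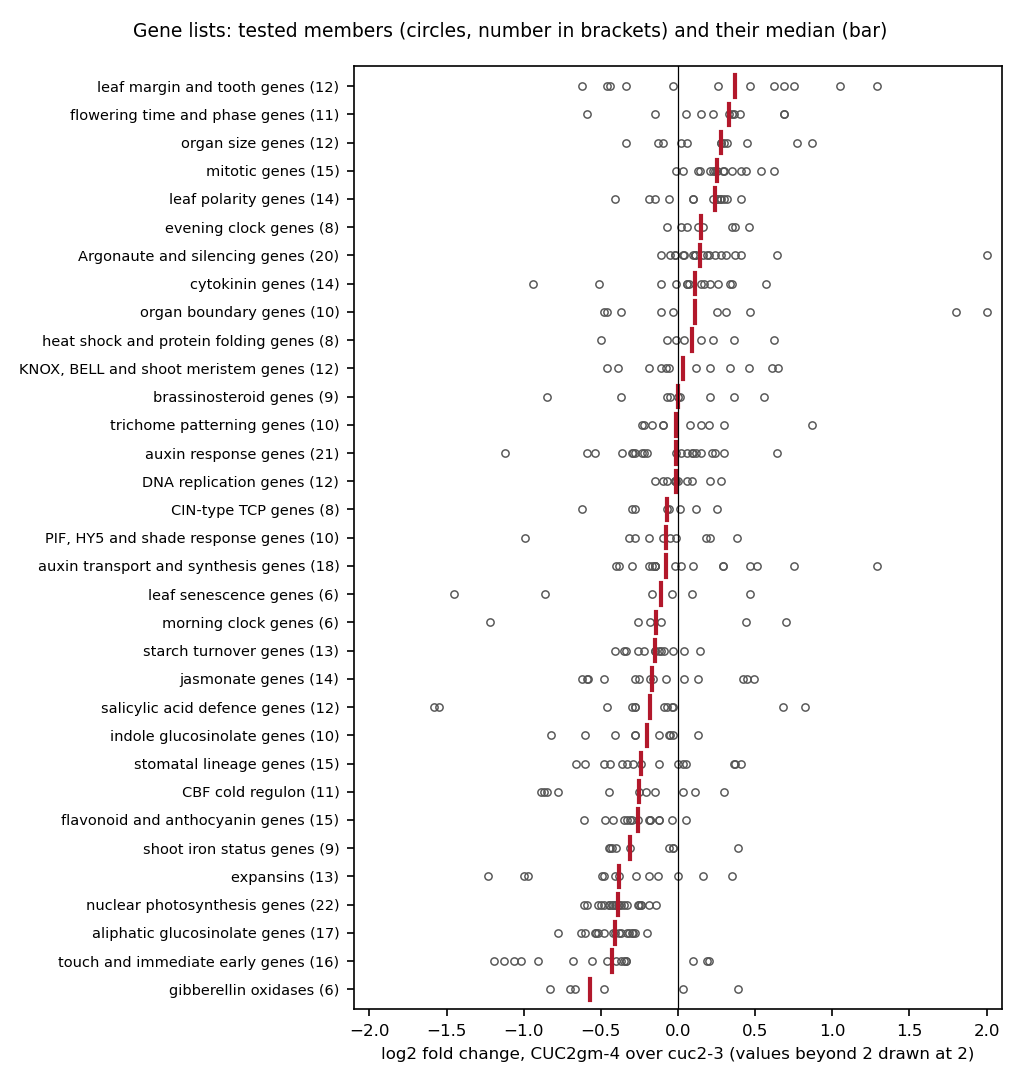
Log2 fold changes, libraries labelled CUC2gm-4 over cuc2-3, of the tested members (circles) and their median (bar) for each pathway list with 5 or more tested members, ordered by median, with values beyond 2 drawn at 2. Medians run from 0.37 for leaf margin and tooth genes to -0.57 for gibberellin oxidases, with photosynthesis and aliphatic glucosinolate members all left of 0.

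Argonaute and silencing genes were positive in 16 of 20, with a median of 0.14 that was 0.04 without cuc2-3 1 and 0.25 without CUC2gm-4 2, and -0.04 in the blocked fit without cuc2-3 1. The pair medians were 0.45, -0.21 and 0.08. Beside AGO9, the RNA polymerase IV gene NRPD1 had 6.46, 7.07 and 9.98 normalised CPM in the libraries labelled CUC2gm-4, against 4.54, 5.75 and 4.79 in cuc2-3, a log2 fold change of 0.64 (SE 0.23). DDM1, a chromatin remodeller that keeps DNA methylated, was at 0.37 (SE 0.16), and AGO6 at 0.41 (SE 0.20). All 3 had the groups apart, as in 4.82% of all genes, and an adjusted p of 1.0 in edgeR. The methyltransferase genes MET1 and CMT3 were both at -0.02 (SE 0.20 and 0.13), and AGO1 at -0.05 (SE 0.20). Of 4837 annotated pseudogenes and transposon genes only 192 passed the count minimum. Their median was 0.01, with 1 called lower, SADHU3-2, and, with the block, 1 called higher, AT3G30122. Long non-coding RNA genes were positive in 89 of 132 tested, with a median of 0.11 (0.03 without CUC2gm-4 1 and 0.22 without CUC2gm-4 2).

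The 6 libraries held 24442714, 18934648 and 23502408 counts in those labelled CUC2gm-4, against 22835829, 18039106 and 27734410 in cuc2-3, so that 3 counts equal 0.108 to 0.166 CPM; intervals cover counting error only. Same-numbered libraries of the lines were 0.428, 0.501 and 0.405 apart (root mean square log2 difference), and libraries of a line 0.462 to 0.548. Library cuc2-3 3 stood apart in organelle reads, with 0.0223% mitochondrial counts against at most 0.00603% in the other libraries. The median log2 fold change of 16 mitochondrial genes was -0.67 with it and 1.35 without it, and that of 77 plastid genes 0.12 with it and 0.78 without it. Without cuc2-3 2 the mitochondrial median was -1.08, and without cuc2-3 1 the plastid median was -0.11. A clock index, the mean log2 CPM of morning minus evening genes, was -4.06, -4.18 and -0.655 in the libraries labelled CUC2gm-4, against -2.12, -4.30 and -1.01 in cuc2-3. Both libraries numbered 3 were thus high, and the part of sampling time in any difference was not tested beyond the covariate, with which CUC2, TRM21 and SADHU3-2 passed. Markers of flowers summed to 0.245 to 0.528 CPM, against 0.277 to 0.793 in cuc2-3, those of seeds to 0.205 to 0.340, against 0.263 to 0.325, and those of roots to 0.450 to 2.90, against 0.433 to 1.55. These levels were low, as the label of aerial parts has it, and none of the markers was at 0 in all 6 libraries. The 4 vascular markers summed to 52.4 to 73.2 CPM, against 64.9 to 93.0 in cuc2-3 (exact p = 0.2 in a 2-sided permutation). Of these markers 3 were negative and 1 positive, with a median log2 fold change of -0.50. They ranged from -0.63 (SE 0.22) for the xylem peptidase gene XCP1 to 0.11.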

How the data were processed

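Raw read counts per gene were deposited by the authors, 1 file per library with 33602 gene models, counted with sam2pkm after removing reads that align equally well in several places, per the file headers. Libraries were stranded, single-end and read on an Ion Torrent Proton after selection of messenger RNA, per the labels' protocols, and TAIR10 was the build named in the submitters' processing notes. Neither aligner nor strand setting was given. Names, positions and sequences come from TAIR10.1, which held 32835 of the models. Genes with a CPM of at least 1 in 3 libraries (18291) were fitted with edgeR 4.0.16 in R 4.3.3: TMM factors, genotype as the factor of a quasi-likelihood model of all 9 libraries, Benjamini-Hochberg adjustment at 0.05, and an SE equal to the log2 fold change over the square root of F. WT entered only to share the spread. DESeq2 1.42.0, limma 3.58.1 (voom), other scalings, no minimum, the clock index as covariate and left-out libraries were alternatives. The unblocked procedure was tested on simulated data without effects shared by same-numbered libraries, so the block was not tested there. Removing ambiguous reads lowers the counts of repeats and recent gene copies.

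Genotypes share the replicate numbers 1 to 3, whose meaning the labels do not give. Deviations from the genotype means correlated between same-numbered libraries in all 9 pairs (r from 0.198 to 0.586, with 0.250, 0.271 and 0.407 in this contrast). Differently numbered libraries had r from -0.477 to 0.188, and deviations from a mean of 3 libraries push these values down. The numbers were therefore treated as a possible pairing, and the fit with that block is given where it changes a result.

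Named genes were those passing in either fit, the next by smallest p up to 10 in a direction, up to 3 members of a list with an unadjusted p below 0.05 in either fit, the CUC and miR164 genes, 6 genes of known difference between the lines or from WT (MRD1, AT2G44970, SADHU3-2, TRM21, AT3G29644 and AGO9), and 3 genes on either side of CUC2. Members and lists were chosen with earlier results of these data known. Genes with a miR164 site, the neighbours of TRM21 and further list members were chosen after their values were seen.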

Additional observations from a re-analysis of the deposited data

How the results depend on the processing

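CUC2, TRM21 and SADHU3-2 kept their direction under 29 alternatives, and TRM21 and SADHU3-2 their call, while CUC2 missed the threshold once (4.72 without replicate 3 of every genotype, where 2 genes passed, 1 higher and 1 lower). The number of genes called was 3 in the 9-library fit, 7 with the replicate block (4 higher, 3 lower), 19 with 6 libraries and the block (11 higher, 8 lower) and 25 in DESeq2 (12 higher, 13 lower). With single libraries left out it ranged from 3 to 4, and with the block from 3 to 10 (2 to 6 higher, with 5 without WT 3, and 1 to 4 lower). With single libraries left out CUC2 ranged from 4.83 to 5.61, and with the block from 4.71 to 5.83. In the 9-library fit the block added AGO9, AT3G30122, AT4G11290 and PR4; in the 6-library fit, with 4 calls, it added others, among them AT1G60110, AT2G07080, EXPA8, PR2, AT3G05730 and AT5G58390. The cause of these changes was not tested.

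Some small values changed sign. CUC3 was at 0.052 with library totals and 0.012 with the clock covariate. It was at 0.020, 0.026 and 0.035 without CUC2gm-4 1, CUC2gm-4 2 and cuc2-3 3 (range -0.13 to 0.035), and with the block at 0.15 and 0.21 without CUC2gm-4 2 and cuc2-3 1. MRD1 was at -0.052 and -0.033 without CUC2gm-4 2 and cuc2-3 2 (range to 0.19; -0.15 and -0.16 with the block). AT3G29644 was at -0.0085, -0.00088 and -0.060 without CUC2gm-4 1, CUC2gm-4 3 and cuc2-3 2 (range to 0.27; -0.046, -0.0092 and -0.065 with the block). AT5G53930 was at 0.027 without CUC2gm-4 3 (range from -0.33; 0.094 with the block) and 0.030 without replicate 3, and TAT7 at 0.079 with the block without cuc2-3 1. The clock index difference, -0.485, ranged from -1.64 to 0.248 with single libraries left out, with 0.0613 and 0.123 between. With 3 libraries a line, small differences in scarce transcripts are not detectable.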
